A study of Mus musculus with 4 samples.

Results

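The enzymes described here oxidise pyruvate and fatty acids in mitochondria, in LSK cells of mice with and without SRC-3. They were chosen by name as 36 genes, of which 35 had a probe set assigned to a single gene, out of 22180 genes tested. Of the 35 genes, 17 belong to the tricarboxylic acid (TCA) cycle and its entry enzyme pyruvate dehydrogenase, and 18 to fatty acid oxidation. Acsl1, an acyl-CoA synthetase, was not analysed here. The list was drawn up with earlier results of these data known, and the probe set with the highest mean signal stood for its gene.

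LSK cells lack lineage markers and carry Sca1 and c-Kit, and the gate takes in blood stem cells and early multipotent progenitors of the bone marrow. The wild-type (WT) group and the SRC-3 knockout (KO) group each held 2 samples, WT1 and WT2 against KO1 and KO2, all from male mice aged 8 weeks, with no treatment named. SRC-3, the product of Ncoa3, is a coactivator of nuclear receptors. The samples are labelled as biological replicates, with no word on how many mice went into each or how the knockout was made. P-values therefore cover the scatter among these samples alone, and part of that scatter may be technical.

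In the TCA cycle, acetyl-CoA from pyruvate or fatty acids is joined to oxaloacetate and oxidised stepwise, and the electrons pass to the respiratory chain. In fatty acid oxidation, long chains are activated to acyl-CoA, carried into the mitochondrion as carnitine esters, and shortened by repeated dehydrogenation, hydration, a second oxidation and thiolysis. Stem cells of the bone marrow are known for a low reliance on mitochondrial respiration at rest, and fatty acid oxidation is known to support their maintenance.

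The array table gave 1 log2 signal per probe set and array. Ncoa3 was at 7.76 and 7.05 on the WT arrays and at 5.35 and 5.09 on the KO arrays, so it fell by 2.19 ± 0.27 on the log2 scale (SE, limma adjusted p = 0.038). Over the 22180 genes the WT arrays correlated at r = 0.986 and the KO arrays at r = 0.992, and arrays of different genotype at 0.977 to 0.982. The WT arrays differed more from each other (SD of the log2 differences 0.382) than the KO arrays did (0.279). Kit, the gene of the sort marker c-Kit, was at 10.33 and 9.65 in WT and at 9.43 and 9.34 in KO. The Sca1 gene Ly6a was not analysed here. Kit, Cd34, Flt3, Meis1 and Gata2 made up a list of 5 stem and progenitor genes, of which Kit alone defines the gate. In 4 of the 5 both KO arrays lay below both WT arrays, against 22.9% of all genes.

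Promoter sequences of 4 members are shown first, chosen after the values were seen. Eci1 and Etfb had the smallest p of all members with an entry, Mdh2 had the smallest among TCA genes with an entry, and Cpt1a had the lowest KO minus WT difference of all members. Each is the 250 bases before an annotated start, 5′ to 3′, from RefSeq on GRCm38.p6, with matches to the motifs named beneath in capitals. The Cpt1a window lies inside the annotated gene, which begins at position 3322326, so it precedes an internal start. Of the 35 genes, 31 had an entry.
Eci1, chr17:24426433-24426682, strand +: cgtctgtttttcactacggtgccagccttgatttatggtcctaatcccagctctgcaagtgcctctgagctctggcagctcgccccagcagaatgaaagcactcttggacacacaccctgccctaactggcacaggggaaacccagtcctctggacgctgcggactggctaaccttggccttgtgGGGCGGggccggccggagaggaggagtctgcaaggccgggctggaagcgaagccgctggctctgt
Etfb, chr7:43443822-43444071, strand +: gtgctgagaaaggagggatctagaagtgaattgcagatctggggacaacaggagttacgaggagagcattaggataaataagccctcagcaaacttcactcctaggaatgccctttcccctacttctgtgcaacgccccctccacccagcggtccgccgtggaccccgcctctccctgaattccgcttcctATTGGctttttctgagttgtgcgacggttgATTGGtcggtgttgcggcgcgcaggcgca
Mdh2, chr5:135778399-135778648, strand +: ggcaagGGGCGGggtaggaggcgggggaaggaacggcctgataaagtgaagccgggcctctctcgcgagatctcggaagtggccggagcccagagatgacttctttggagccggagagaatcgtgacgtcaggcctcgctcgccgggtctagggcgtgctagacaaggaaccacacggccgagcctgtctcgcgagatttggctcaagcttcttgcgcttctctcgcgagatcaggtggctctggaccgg
Cpt1a, chr19:3323051-3323300, strand +: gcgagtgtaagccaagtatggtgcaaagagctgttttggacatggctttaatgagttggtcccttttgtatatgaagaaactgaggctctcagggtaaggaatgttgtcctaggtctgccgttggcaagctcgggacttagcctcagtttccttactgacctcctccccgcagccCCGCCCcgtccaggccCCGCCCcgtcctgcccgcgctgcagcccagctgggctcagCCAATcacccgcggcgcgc

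Motifs were searched on both strands of these upstream windows. The GC box GGGCGG, bound by Sp1-type factors, occurred in 11 of 16 TCA genes and 10 of 15 fatty acid oxidation genes with an entry, against 35.4% of all 27025 genes with one. CCAAT, the NF-Y motif, occurred in 9 of 16 and 6 of 15, against 37.5%. The TATA letters TATAAA occurred in 0 of 16 and 0 of 15, against 14.3%. The motif TCAAGGTCA of the estrogen-related receptors occurred in none of the 31 genes, against 0.422%. The ETS motif CCGGAAGT was present in Cpt2 alone (3.23% of all genes) and the E-box CACGTG in Ogdh alone (6.86%). Some genes have several windows, and a gene was counted when any window matched. The background took in every gene with an entry, whatever its signal, so it is not matched to the members in signal. The motifs do not overlap in the 4 printed windows. A match describes letters, not a bound site, and absence says only that these letters are not in the window.

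Most of the enzymes had a higher mean signal in KO, by less than 2-fold, and none passed the test across all genes. A higher mean was seen for 30 of 35 members, against 49.7% of all genes. Both KO arrays lay above both WT arrays for 27 members (25.1% of all genes) and below them for 2 (22.9% of all genes). At an unadjusted p under 0.05 limma gave 13 members as higher (10.5% of all genes) and 0 as lower (6.93% of all genes). At an adjusted p under 0.05 it gave 0 members, against 0.509% of all genes. The lowest adjusted p among the members was 0.077, for Acaa2. In whole-sample RNA, a changed share of cells of a type and changed RNA per cell cannot be told apart.

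**Figure D1:**
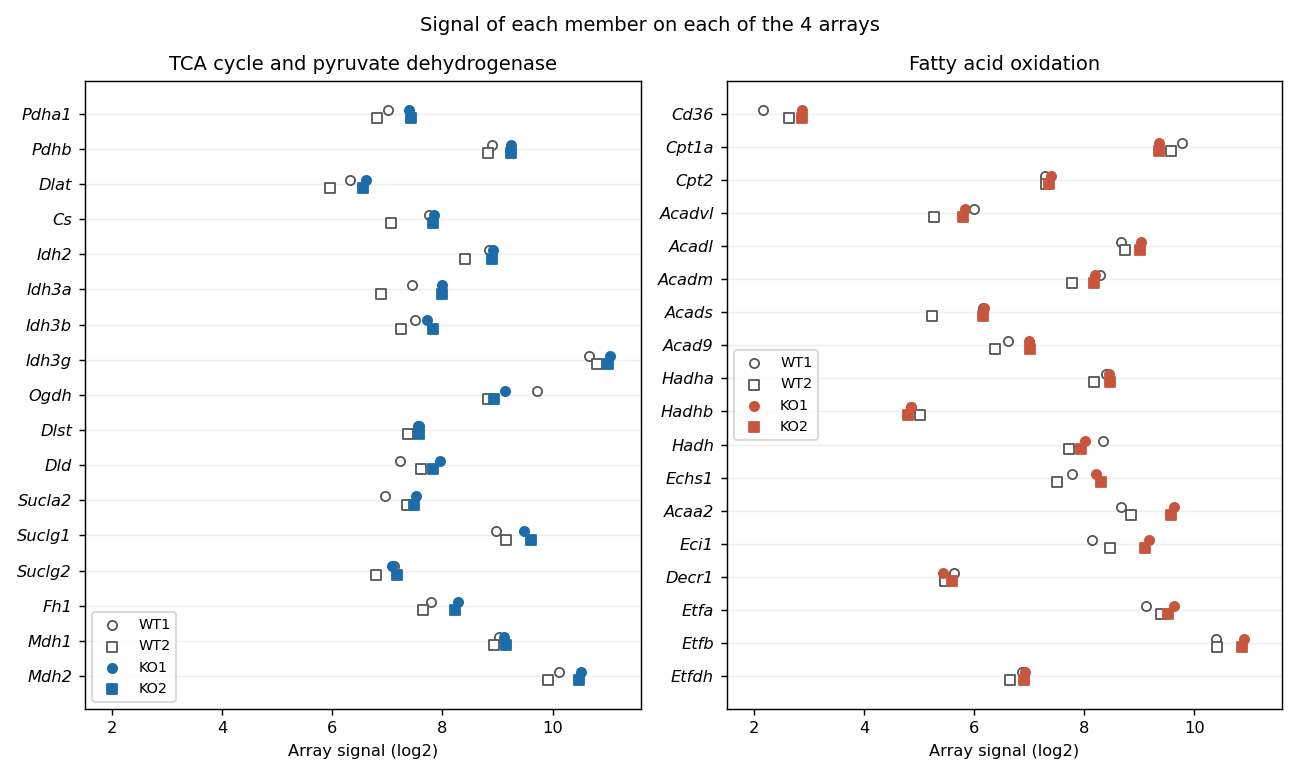
Log2 array signal of each of the 35 genes on WT1, WT2 (open symbols), KO1 and KO2 (filled symbols), in pathway order. The KO points lie to the right of the WT points in 15 of 17 TCA rows and 12 of 18 fatty acid oxidation rows, and the KO points nearly coincide while the WT points are often spread.

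Genes of bright probe sets were higher in KO as a whole, so the members were also read beside genes of similar signal. All genes were put into 10 deciles of mean signal, and the median KO minus WT difference ran from -0.08 in the fifth decile to 0.16 in the top decile. Of the TCA genes, 8 lay in the top decile, 8 in the ninth and 1 in the eighth, and of the fatty acid oxidation genes 10 lay in the top decile. In the TCA genes' own deciles, averaged over the genes, 42.2% of genes had both KO arrays above both WT arrays, against 88.2% (15) of the 17 TCA genes. For fatty acid oxidation the background was 39.9% and the members' share 66.7% (12 of 18).

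At an unadjusted p under 0.05 the share higher in KO was 47.1% (8 of 17) for TCA genes, with 23.6% in their own deciles. For fatty acid oxidation genes it was 27.8% (5 of 18), with 21.6% in their own deciles, which is near that background. The difference exceeded the decile median in 15 TCA genes and 12 fatty acid oxidation genes. It exceeded the upper quartile of the decile in 8 and 7 of them.

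**Figure D2:**
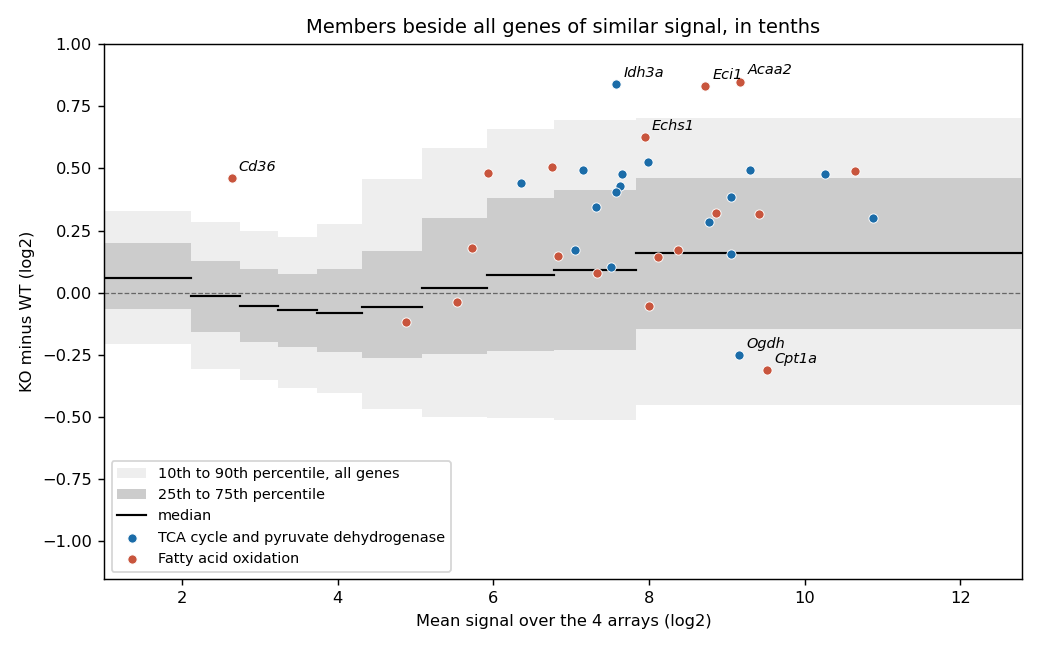
KO minus WT difference (log2) against mean signal over the 4 arrays (log2) for the 35 members, over the median, quartile and 10th to 90th percentile bands of all genes in each decile of signal. TCA genes lie mostly above the black median lines, while Ogdh and Cpt1a lie below the lower quartile of the top decile.

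Pyruvate dehydrogenase joins glycolysis to the cycle. Its E1 alpha subunit gene Pdha1 was at 7.02 and 6.80 in WT and at 7.38 and 7.42 in KO, a difference of 0.49 ± 0.17 (log2, SE, limma adjusted p = 0.22). The groups did not overlap. Pdhb, the E1 beta subunit, was at 8.90 and 8.83 in WT and at 9.24 and 9.25 in KO, a difference of 0.38 ± 0.14 (adjusted p = 0.24). Dlat, the E2 acetyltransferase, differed by 0.44 ± 0.20 (adjusted p = 0.32). All 3 subunit genes were thus at a higher mean in KO, and their median difference was 0.44.

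Citrate synthase and the isocitrate dehydrogenases carry the first oxidative steps of the cycle. Cs, which makes citrate, was at 7.76 and 7.06 in WT and at 7.84 and 7.83 in KO. WT1 was close to the KO arrays and WT2 stood below them, and the difference of 0.43 had a 95% interval from -0.17 to 1.03. Without WT2 it was 0.083 and without WT1 0.78.

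Idh3a, the catalytic subunit of the NAD-dependent isocitrate dehydrogenase, was at 7.44 and 6.87 in WT and at 8.00 and 7.99 in KO. Its difference of 0.84 ± 0.22 (1.79-fold, limma adjusted p = 0.14) was the highest among the TCA genes. It lay at the 94.4th percentile of its decile. The partner subunits showed smaller values. Idh3g was at 10.66 and 10.80 in WT and at 11.05 and 11.01 in KO, a difference of 0.30 ± 0.12, and Idh3b differed by 0.40 ± 0.18 (95% interval -0.02 to 0.83). The interval of Idh3a, from 0.30 to 1.38, overlaps those of its partners, and a difference between the subunits was not tested. Idh2, the NADP-dependent mitochondrial enzyme, differed by 0.28 ± 0.19. Without WT2 that value was 0.062, and without WT1 it was 0.50 (adjusted p = 0.029).

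Oxoglutarate dehydrogenase had subunit genes with unlike values. Ogdh, its E1 component, was at 9.73 and 8.83 in WT and at 9.13 and 8.93 in KO. The groups overlapped, since WT1 was the highest and WT2 the lowest array, and the difference was -0.25 ± 0.29 (95% interval -0.95 to 0.45). Without WT1 the difference was 0.20 (adjusted p = 0.37), and without WT2 it was -0.70 with an adjusted p of 0.026.

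Dlst, the E2 succinyltransferase, differed by 0.10 ± 0.17. Dld, the E3 subunit that oxoglutarate and pyruvate dehydrogenase share, was at 7.22 and 7.60 in WT and at 7.95 and 7.84 in KO, a difference of 0.48 ± 0.19 (adjusted p = 0.27). For Dld the lowest array was WT1, unlike for Cs and Idh3a.

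Succinyl-CoA ligase forms ATP or GTP while releasing succinate. Its shared alpha subunit gene Suclg1 was at 8.97 and 9.15 in WT and at 9.49 and 9.61 in KO, a difference of 0.49 ± 0.15 (1.41-fold, adjusted p = 0.18). The ATP-forming beta subunit gene Sucla2 differed by 0.35 ± 0.20 and the GTP-forming Suclg2 by 0.17 ± 0.19. The groups overlapped for Suclg2, and its second, dimmer probe set differed by 0.57.

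Fumarase and malate dehydrogenase close the cycle. Fh1, fumarase, was at 7.80 and 7.65 in WT and at 8.27 and 8.22 in KO, a difference of 0.53 ± 0.16 (1.44-fold, limma adjusted p = 0.18). Mdh2, the mitochondrial malate dehydrogenase, was at 10.11 and 9.92 in WT and at 10.52 and 10.48 in KO, a difference of 0.48 ± 0.13 (1.39-fold, adjusted p = 0.16). In both genes every KO array lay above every WT array. Its cytosolic counterpart Mdh1 differed by 0.16 ± 0.14, the median of its decile (49.7th percentile).

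Fatty acid oxidation begins with uptake and the carnitine shuttle, and here the values did not run one way. Cd36, a fatty acid transporter of the cell surface, was at 2.17 and 2.64 in WT and at 2.86 and 2.87 in KO. These are dim signals, in the second decile, where a fold is compressed, and the difference was 0.46 ± 0.20 (adjusted p = 0.30). Cpt1a, the rate-limiting carnitine acyltransferase of the outer membrane, was at 9.77 and 9.57 in WT and at 9.36 and 9.36 in KO. Both KO arrays lay below both WT arrays, with a difference of -0.31 ± 0.15 (95% interval -0.66 to 0.04, limma adjusted p = 0.34), at the 15.8th percentile of its decile. Without WT2 it stood at -0.41 (adjusted p = 0.018) and without WT1 at -0.21 (adjusted p = 0.099). Without KO1 and without KO2 the adjusted p was 0.85 and 0.76. Cpt2, the inner membrane partner, was at 7.28 and 7.31 in WT and at 7.40 and 7.35 in KO, a difference of 0.08 (95% interval -0.31 to 0.47).

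The acyl-CoA dehydrogenases take the first step of each round and differ in the chain lengths they accept. All 5 were at a higher mean in KO (median difference 0.32), and in 3 the groups did not overlap. Acad9, which also helps to assemble respiratory complex I, was at 6.62 and 6.38 in WT and at 6.99 and 7.02 in KO, a difference of 0.50 ± 0.18 (1.42-fold, adjusted p = 0.22). The long-chain Acadl differed by 0.32 ± 0.14. The very-long-chain Acadvl (0.18 ± 0.26), the medium-chain Acadm (0.14 ± 0.21) and the short-chain Acads (0.48 ± 0.31) had wide errors. In each of these 3 genes WT2 was the lowest array, and without WT2 the differences were -0.18, -0.11 and 0.013. Without WT1 they were 0.55, 0.40 and 0.95, and Acads alone of the 3 then passed (adjusted p = 0.034).

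Hydration, the second oxidation and thiolysis complete the round. Acaa2, the mitochondrial thiolase that releases acetyl-CoA, was at 8.66 and 8.84 in WT and at 9.63 and 9.57 in KO. This was the highest difference of all members, 0.85 ± 0.15 (1.80-fold, limma adjusted p = 0.077), and it lay at the 95.1st percentile of its decile. Echs1, the short-chain enoyl-CoA hydratase, was at 7.77 and 7.50 in WT and at 8.21 and 8.30 in KO, a difference of 0.63 ± 0.17 (1.54-fold, adjusted p = 0.15).

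The trifunctional protein, which carries out the same steps on long chains, did not show such values. Its alpha subunit gene Hadha differed by 0.17 ± 0.16 (95% interval -0.22 to 0.56), and its beta subunit gene Hadhb by -0.12 ± 0.17 (95% interval -0.53 to 0.30). Hadhb was at 4.86 and 5.01 in WT and at 4.85 and 4.79 in KO, so its groups were only just apart. Hadh, the short-chain hydroxyacyl-CoA dehydrogenase, differed by -0.05 ± 0.23, with overlapping groups.

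Unsaturated chains need auxiliary enzymes that move or reduce double bonds. Eci1, an enoyl-CoA isomerase, was at 8.14 and 8.47 in WT and at 9.17 and 9.10 in KO, a difference of 0.83 ± 0.17 (1.78-fold, adjusted p = 0.10). Decr1, a dienoyl-CoA reductase, differed by -0.04 ± 0.18, with overlapping groups.

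Electrons from the acyl-CoA dehydrogenases pass through electron transfer flavoprotein to ubiquinone. Etfb, its beta subunit, was at 10.40 and 10.40 in WT and at 10.90 and 10.87 in KO, a difference of 0.49 ± 0.12 (1.40-fold, limma adjusted p = 0.12). The larger of its within-group SDs, 0.024, was the lowest among the 13 members past an unadjusted p of 0.05. The alpha subunit gene Etfa differed by 0.32 ± 0.16 and the ubiquinone oxidoreductase gene Etfdh by 0.15 ± 0.18, and neither had overlapping groups.

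**Figure D3:**
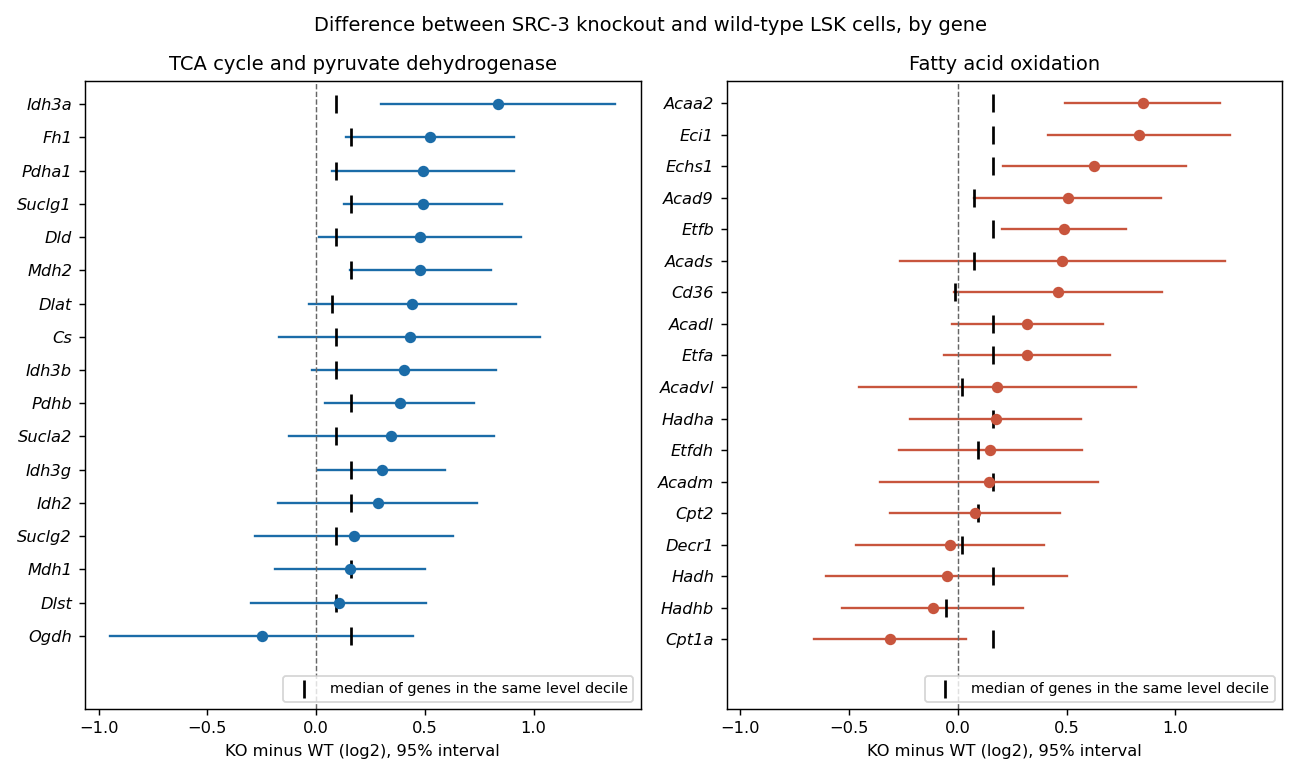
KO minus WT difference (log2) of each member with its 95% interval from the limma fit, sorted within each pathway, with the median of genes in the same signal decile as a black tick. Idh3a, Acaa2 and Eci1 are the 3 genes above 0.8, and intervals that include 0 belong to 9 TCA and 13 fatty acid oxidation genes.

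The pathways were then set against each other. The median KO minus WT difference was 0.40 (1.32-fold) over the 17 TCA genes and 0.25 (1.19-fold) over the 18 fatty acid oxidation genes, against -0.0010 over all genes. After the decile median of each gene was taken off, the medians were 0.31 and 0.16. The ranges overlapped almost wholly, from -0.25 to 0.84 for TCA genes and from -0.31 to 0.85 for fatty acid oxidation genes. The medians differed by 0.15, and this difference is a description without a test. It was 0.22 when genes below the median signal, here Cd36, were left out, and 0.27 without WT2, since the fatty acid oxidation median was then 0.078. It was 0.13 without WT1, 0.19 without KO1 and 0.12 without KO2. Against all genes within each pathway's own range of signal, in place of deciles, the medians stood 0.29 and 0.26 higher. These ranges are unlike. The fatty acid oxidation range reached down to Cd36 at 2.63 and held 17987 genes, with a median of -0.014. The TCA range began at 6.36 and held 5334 genes, with a median of 0.12. The closer values thus do not compare the pathways at matched signal.

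Array by array, the median deviation of the TCA genes from their own means was -0.14 on WT1, -0.32 on WT2, 0.19 on KO1 and 0.19 on KO2. For fatty acid oxidation genes it was -0.04, -0.22, 0.14 and 0.10, and for all genes it stayed between -0.013 and 0.020. The KO arrays were nearly equal, whereas WT1 was above WT2 by a median of 0.19 over TCA genes and 0.18 over fatty acid oxidation genes. WT2 was the lowest array for 13 of 17 TCA genes and 8 of 18 fatty acid oxidation genes. The median TCA deviation minus the median fatty acid oxidation deviation was -0.10 on WT1, -0.10 on WT2, 0.05 on KO1 and 0.09 on KO2.

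**Figure D4:**
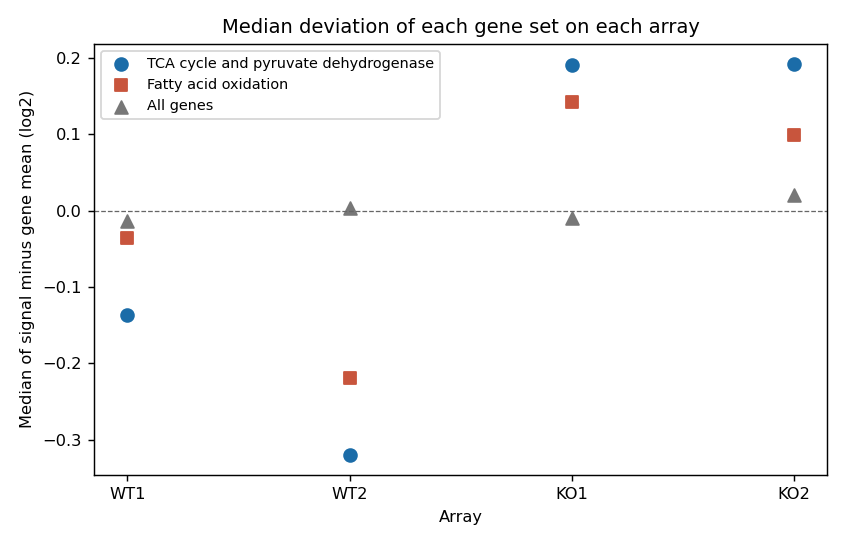
Median over each gene set of the signal minus the gene's mean over 4 arrays (log2), for WT1, WT2, KO1 and KO2. Both pathways lie below 0 on the WT arrays and above 0 on the KO arrays, with WT2 lowest at -0.32 for TCA genes, while all genes stay near 0.

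Calls depended on single arrays. Without WT1, limma gave 8 TCA and 6 fatty acid oxidation genes at an adjusted p under 0.05, when 7.91% of all genes passed. Without WT2 it gave 9 and 7, when 13.5% of all genes passed, and Ogdh and Cpt1a among them were lower in KO. Pdhb, Idh3a, Idh3g, Fh1, Mdh2, Echs1, Acaa2, Eci1 and Etfb passed in both of these fits. Pdha1, Cs, Idh2, Acads and Acad9 passed only without WT1, and Ogdh, Dld, Sucla2, Suclg1, Cpt1a, Acadl and Etfa only without WT2. Without KO1 or without KO2 it gave 0 members and 0% of all genes. The number of TCA genes higher at an unadjusted p under 0.05 was 14 without WT1, 10 without WT2 and 0 without KO1 or without KO2, against 8 with every array. For fatty acid oxidation genes it was 11, 8, 0 and 1, against 5. The share of all genes moved with these counts, at 16% without WT1, 14% without WT2, 3.77% without KO1 and 4.39% without KO2, against 10.5% with every array. With an array left out, the lone sample of its group is assumed to vary like the other group.

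Other genes of the pathways were taken from a list by role. Of 23 further TCA and pyruvate genes, limma gave 8 with a higher and 1 with a lower signal at an unadjusted p below 0.05, none passed an adjusted p of 0.05 in limma, and the median difference was 0.27. These are shares of 34.8% higher and 4.35% lower, against 18.4% and 9.09% in their own signal deciles. Mpc1, a subunit of the mitochondrial pyruvate carrier, was at 7.47 and 8.16 in WT and at 8.86 and 8.86 in KO, a difference of 1.05 ± 0.24 (adjusted p = 0.12). Me2, mitochondrial malic enzyme, differed by 0.80 ± 0.17, and Pcx, pyruvate carboxylase, by 0.85 ± 0.26. Succinate dehydrogenase is both the next TCA enzyme and respiratory complex II. Its genes Sdhb (0.46 ± 0.14), Sdhc (0.44 ± 0.17) and Sdhd (0.84 ± 0.16) had both KO arrays above both WT arrays. Sdha was at -0.17 ± 0.25 with overlapping groups. Sdha and Sdhc were named after their values were seen.

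Of 32 further fatty acid genes, 3 had a higher and 1 a lower signal at an unadjusted p below 0.05, with a median difference of 0.15, and none passed an adjusted p of 0.05 in limma. Their share higher at that p, 9.38%, was below the 14.1% in their own signal deciles. Acsl5, an acyl-CoA synthetase, differed by 0.68 ± 0.20, Acot13, an acyl-CoA thioesterase, by 0.87 ± 0.27, and Acat1, which cleaves acetoacetyl-CoA, by 0.52 ± 0.18. Slc27a1, a fatty acid transport protein, was at 5.71 and 4.70 in WT and at 4.32 and 4.29 in KO, a difference of -0.90 ± 0.33 (adjusted p = 0.23). By role, the 12 other mitochondrial acyl-CoA enzymes had a median of 0.35. Both KO arrays lay above both WT arrays for 8 of them and below for 2 (25.1% and 22.9% of all genes). The 12 uptake, activation and carnitine genes had a median of 0.08. The 6 peroxisomal oxidation genes had a median of -0.04, with 0 past an unadjusted p of 0.05 in limma in either direction.

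Regulators of these pathways were lower more often than higher. Of 23 measured regulators, Ncoa3 included, 1 had a higher and 8 had a lower signal at an unadjusted p below 0.05, with a median of -0.24, and 34.8% were lower at that p against 8.56% in their own deciles. Ncoa3 was the single regulator past an adjusted p of 0.05. Ncoa2, the related coactivator SRC-2, differed by -0.71 ± 0.21, and Foxo1, a forkhead factor of quiescent stem cells, by -0.78 ± 0.18. Hnf4a, a nuclear receptor, differed by -0.61 ± 0.20, and Prkaa2, a catalytic subunit of AMP-activated kinase, by -0.78 ± 0.26. Further genes were named after their values were seen. Tfam, a mitochondrial transcription factor and the 1 regulator counted as higher, differed by 0.55 ± 0.19. Ppara, the PPAR alpha receptor, differed by 0.16 ± 0.17, and Esrra, an estrogen-related receptor, by -0.24 ± 0.18. Ppargc1a, the coactivator PGC-1 alpha, differed by -0.68 ± 0.26. The mean signals of Ppara (3.31), Ppargc1a (3.39) and Prkaa2 (4.17) were dim, below the median gene level of 4.3.

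**Figure D5:**
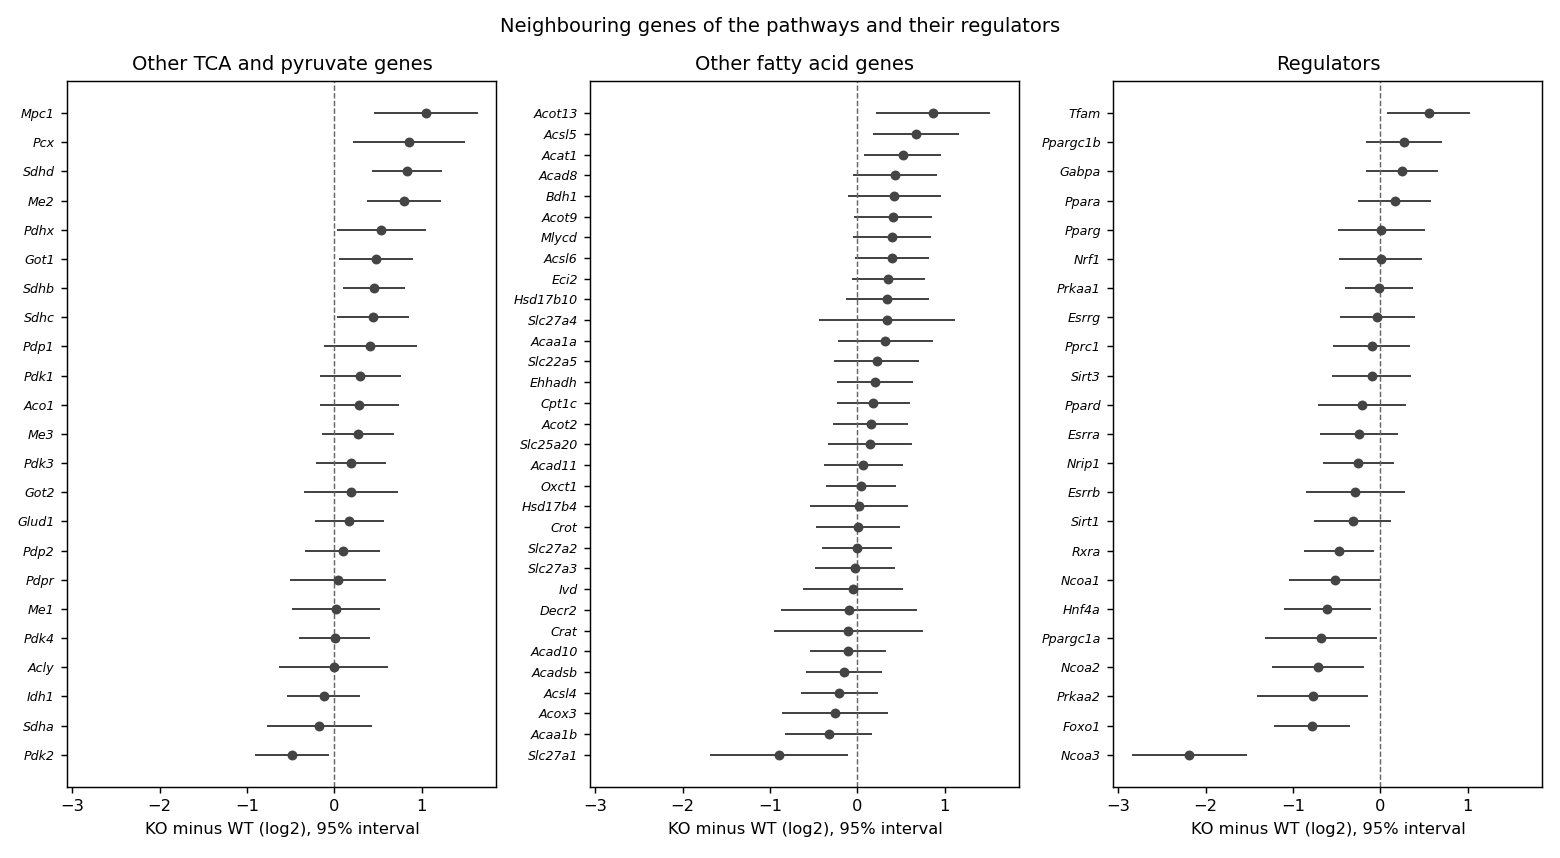
KO minus WT difference (log2) with its 95% interval for the 23 further TCA and pyruvate genes, the 32 further fatty acid genes and the 23 regulators, sorted within each panel. Most points of the left panel lie right of 0, and 17 of the 23 regulators lie left of 0.

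Genes listed as markers of other cells moved with the genotype, and their part in the enzyme values was not tested. Over all genes, limma gave 10.5% as higher and 6.93% as lower at an unadjusted p under 0.05. At an adjusted p under 0.05 it gave 0.509% of all genes. Of 9 measured erythroblast markers, 8 had a higher and 1 a lower signal in KO at an unadjusted p below 0.05, and 5 rose at an adjusted p under 0.05. Their summed linear signal was 790.4 to 902.1 in WT and 4452 to 4599 in KO. For neutrophils, 9 of 12 markers passed an unadjusted p of 0.05 with a higher KO signal and 0 passed the adjusted threshold in limma. The neutrophil sums were 9590 to 11900 in WT and 13850 to 13930 in KO. Most of these sums came from Mpo, Elane, Prtn3 and Ctsg, which were already at 10.73 to 12.16 on the WT arrays. For 11 macrophage and dendritic cell markers the sums were 1189 to 1250 and 2095 to 2148, but the list was mixed. H2-Aa, H2-Eb1 and Slc40a1, 3 of the 11, rose at an adjusted p under 0.05 in limma. The KO mean was higher for 7 and lower for 4, among them Cd68, C1qa and C1qb, and the median difference was 0.18. In limma 1 of 8 mast cell and basophil markers rose at an adjusted p under 0.05, and 3 at an unadjusted p under 0.05. The KO mean was higher for 7 of these 8 and lower for 1, with sums of 530.3 to 881.3 in WT and 972.8 to 1033 in KO. Of the 8 platelet markers, 0 passed an adjusted p of 0.05 in limma and 2 were higher at an unadjusted p under 0.05. The platelet sums were 327.8 to 375.8 in WT and 514.5 to 518.8 in KO.

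The 7 B cell markers had a median of -0.18, the 8 T and NK cell markers one of -0.20, and the 11 cell cycle genes one of 0.18. Sums weigh bright genes most, and those of B cell markers were 267.4 to 268.3 in WT and 280.6 to 286.1 in KO. They were 902.8 to 1217 and 1329 to 1393 for T and NK cell markers, and 6745 to 8168 and 7811 to 8049 for cell cycle genes. By median, the erythroblast list stood at 1.64, neutrophil at 0.63, mast cell and basophil at 0.50 and platelet at 0.25. The 5 stem and progenitor genes, Kit among them, summed to 3239 to 4290 in WT and 2186 to 2343 in KO. No array value is 0 on this scale, so no marker could be called absent.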

How the data were processed

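Expression was measured on 4 Affymetrix arrays, 2 WT and 2 KO. The authors deposited 1 table of log2 values for 41345 probe sets. Per the submitters' processing notes, RMA and Affymetrix Expression Console 1.2.1 were used. Other settings, filters and the build were not given in the sources used here. The log2 scale was read from the values (0.375 to 12.8). RMA compresses dim signals. No sequencing depth applies, and the number of arrays limits the precision.

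The platform annotation gave 1 gene symbol for 23521 probe sets and several for 1814, and 16010 were not listed. The probe set of highest mean stood for each gene, with no filter. The KO minus WT contrast was fitted in limma 3.58.1 under R 4.3.3 with moderated variances that follow the signal level. Two-sided p-values received the Benjamini-Hochberg adjustment across 22180 genes, with a threshold of 0.05. The fit was tested on simulated data with independent scatter of equal size in both groups. The WT arrays scattered more than the KO arrays, so the simulation does not check the calls made here. Errors are moderated standard errors, and intervals are at 95%. Signal deciles were taken over all genes. Promoters were matched by gene identifier.

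Members and lists were chosen with earlier results of these data known. All members are named. Values on every array are given for those past an unadjusted p of 0.05 and for the pathway entry genes, and up to 5 neighbours per list were named by smallest p. The 4 promoters were chosen after the values were seen. Alternatives were the replicate number as a block, probe set means, a filter at the median signal, quantile normalization, median centring, no variance trend and each array left out.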

Additional observations from a re-analysis of the deposited data

How the results depend on the processing

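Of the 35 members, 30 kept their direction in all settings in which they were fitted. Decr1 became positive after quantile normalization (0.046) and after centring (0.011), and ran from -0.12 to 0.043 with each array left out. With each array left out Ogdh ran from -0.70 to 0.20, Acadvl from -0.18 to 0.55, Acadm from -0.11 to 0.40 and Hadh from -0.36 to 0.25. Over all genes, 289 passed among those at or above the median signal, 189 after quantile normalization, 247 after centring and 0 to 3002 with each array left out, against 113. Among genes at or above the median signal Acaa2 passed (adjusted p = 0.049, and 0.0079 to 0.74 over its alternatives).

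The labels number the samples of each group, but nothing says that a number marks a shared animal or day, and deviations of same-numbered arrays correlated at 0.11 across genes. With the replicate block 111 genes passed, and 5 TCA and 6 fatty acid oxidation genes were higher at an unadjusted p under 0.05, as were 10.3% of all genes. With each array left out these counts ran from 0 to 14 and from 0 to 11, while the share of all genes ran from 3.77% to 16%. The TCA median ran from 0.35 to 0.42 and the fatty acid oxidation median from 0.078 to 0.29. Their difference ran from 0.12 to 0.27 and was 0.22 with the signal filter. Against all genes within the members' range of signal, the fatty acid oxidation median stood 0.26 higher, against 0.16 by deciles, and the TCA median 0.29 higher, against 0.31. The fatty acid oxidation range reached down to Cd36 at 2.63, so it is a looser match in signal than the deciles. The design has 2 arrays a group, so fits with an array left out rest on 1 array in its group.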
